A study of Homo sapiens with 8 samples.

Results

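The mitochondrial rRNA transcription unit comprised 5 neighbouring genes on the plus strand of the mitochondrial genome, which are MT-TF, MT-RNR1, MT-TV, MT-RNR2 and MT-TL1. On GRCh38 the unit ran from chrM:577 to chrM:3304, over 2728 nt. In order along the strand these are MT-TF (ENSG00000210049.1, chrM:577-647), MT-RNR1 (ENSG00000211459.2, chrM:648-1601), MT-TV (ENSG00000210077.1, chrM:1602-1670), MT-RNR2 (ENSG00000210082.2, chrM:1671-3229) and MT-TL1 (ENSG00000209082.1, chrM:3230-3304). Its members were all peaks of the genome peak lists on the plus strand that overlapped this stretch, and each peak was assigned to the gene with which it shared most bases. This gave 190 of the 4746 peaks in all lists. Peaks of different libraries that overlapped by at least 1 nt were merged, which gave 60 of the 1373 merged regions of the series. The choice used positions and no measured value.

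The data came from HEK-293 cells, a line derived from human embryonic kidney, either wild-type (WT) or with a knockout of ALKBH1 (ALKBH1 KO, written KO below). Fragmented total RNA of both lines was treated with the aldehyde-reactive probe (ARP), which puts biotin on aldehydes such as that of 5-formylcytidine (f5C). A portion kept before the streptavidin pulldown was sequenced as input and the RNA held on the beads as IP. The 4 groups were WT input, WT IP, KO input and KO IP, with 2 libraries each, and an f5C oligonucleotide had been added to the RNA of all groups before the probe. Methods describe the KO as grown from sorted single cells, and which clone was sequenced is not given, so differences between lines other than ALKBH1 cannot be told apart from the knockout. The measurement is how many unique cDNAs fell in a called peak, and no list held a peak of fewer than 10.

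Human mitochondrial DNA is transcribed into long RNAs in which tRNAs lie between the rRNAs and mRNAs, and cutting at both ends of each tRNA releases the neighbouring RNAs. In this unit MT-RNR1 is the rRNA of the small mitochondrial ribosomal subunit and MT-RNR2 that of the large subunit, and the tRNAs for phenylalanine (MT-TF), valine (MT-TV) and leucine of UUR codons (MT-TL1) stand at their borders. The mitochondrial tRNA for valine is itself built into the large subunit. ALKBH1 is a dioxygenase that oxidises 5-methylcytidine (m5C), and its established mitochondrial product is f5C at the wobble base of the methionine tRNA, which lies outside this unit.

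The stretches on which the results turn are shown in the plus-strand bases of the GRCh38 reference, 5′ to 3′, so that peak borders can be read against the RNA. The first is the tRNA at the 5′ end (chrM:577-647), where capitals mark the bases inside a peak of all 4 inputs.
MT-TF: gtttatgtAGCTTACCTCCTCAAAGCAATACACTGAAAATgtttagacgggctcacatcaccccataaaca
The second is the tRNA at the 3′ end (chrM:3230-3304), where capitals mark the bases inside a peak assigned to it in both WT IPs.
MT-TL1: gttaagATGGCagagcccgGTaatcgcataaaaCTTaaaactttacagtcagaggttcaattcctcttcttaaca
The next is the end of MT-RNR2 just before that tRNA (chrM:3114-3210), where capitals mark the bases inside a peak of all 8 libraries.
MT-RNR2 end: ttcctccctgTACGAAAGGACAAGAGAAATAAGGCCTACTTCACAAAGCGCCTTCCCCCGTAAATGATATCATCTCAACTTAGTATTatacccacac
A stretch of MT-RNR1 had a peak in every input and in no IP (chrM:1498-1555), and its capitals mark the bases shared by the 4 inputs.
MT-RNR1 late peak: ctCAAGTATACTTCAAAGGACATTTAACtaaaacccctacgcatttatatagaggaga
A pair of short MT-RNR2 stretches (chrM:2227-2255 and chrM:2390-2418) carried peaks in the inputs and the KO IPs but not in WT IPs, with capitals for the bases shared by those 6 libraries.
MT-RNR2 inner site a: aaaaaatcccaaaCATATaactgaactcc
MT-RNR2 inner site b: aatcaaccaaCAAGTCATTattaccctca
Another short MT-RNR2 stretch (chrM:1694-1720) had a peak in both KO IPs and in no other library.
MT-RNR2 inner site c: tccaccttacTACCAGAcaaccttagc

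The summed peak counts of both lists lay between 48380 and 285539 per library, and they were the scale for CPM, the peak counts per 1000000 of that sum. These totals cover called peaks and are not the sequencing depth, which was not analysed here. A list minimum of 10 counts was worth 106 and 102 CPM in WT inputs, 51.4 and 35.0 in KO inputs, 153 and 207 in WT IPs and 187 and 192 in KO IPs, so low peaks were listed most easily in KO inputs. A missing peak therefore says that fewer than this was seen in a called cluster, not that the RNA lacked it. No library listed a peak on ALKBH1 itself, so the knockout could not be checked in these files. The labels do not say whether replicates were separate cultures, while the paper speaks of biological replicates for this experiment. The p-values measure the spread between these libraries, and how much of it is technical was not tested.

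The unit held 3.45% (Wilson 95% interval 3.33 to 3.56) and 3.60% (3.48 to 3.71) of the peak counts in WT inputs, and 4.59% (4.49 to 4.68) and 4.98% (4.90 to 5.06) in KO inputs. In the pulldown it held 2.61% (2.49 to 2.74) and 2.46% (2.32 to 2.60) in WT, and 4.51% (4.34 to 4.69) and 4.65% (4.47 to 4.84) in the KO. The intervals cover counting error only. The WT IPs were thus the lowest and lay apart from every other library, while KO IP and KO input overlapped. Group means were 3.52% ± 0.106 (SD, n = 2) for WT input, 4.78% ± 0.277 for KO input, 2.54% ± 0.110 for WT IP and 4.58% ± 0.0975 for KO IP. With 2 libraries against 2, the exact permutation test (two-sided) cannot go below p = 0.333, which was its value for WT IP against WT input, WT IP against KO IP and WT input against KO input. For KO IP against KO input the same exact test gave p = 0.667. Part of each share is set by the counts of other RNAs, so a lower share is not by itself less RNA of the unit.

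The count model gave the same question a test across all regions. With the unit taken as 1 sum, edgeR's quasi-likelihood test put WT IP below WT input (log2 fold change −0.45, SE 0.11, adjusted p = 0.0201) and WT IP below KO IP (−0.62, SE 0.10, adjusted p = 0.00152). WT input lay below KO input (−0.42, SE 0.06, adjusted p = 0.0188), and KO IP did not pass against KO input (−0.18, SE 0.08, adjusted p = 0.0868). The change from input to IP did not differ detectably between lines (interaction −0.06, SE 0.16, adjusted p = 0.829), although with unscaled peak totals as library sizes it passed (−0.41, adjusted p = 0.0134). With 1 library left out, a group keeps a single library and the test loses power. A call lost in such a fit, here or below, does not show dependence on the library removed. The fold change of the sum then lay between −0.54 and −0.29 for WT IP against WT input. For the IPs it lay between −0.66 and −0.52, and for the inputs between −0.53 and −0.39. By edgeR, the WT IP against WT input call was lost without WT IP replicate 2 (−0.29, adjusted p = 0.0909) or WT input replicate 2 (−0.42, adjusted p = 0.120), that of the IPs without KO IP replicate 2 (−0.64, adjusted p = 0.0564), and that of the inputs without any 1 of its 4 libraries. KO IP passed against KO input without KO input replicate 1 (−0.24, adjusted p = 0.00563) or replicate 2 (−0.20, adjusted p = 0.00786).

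**Figure D1:**
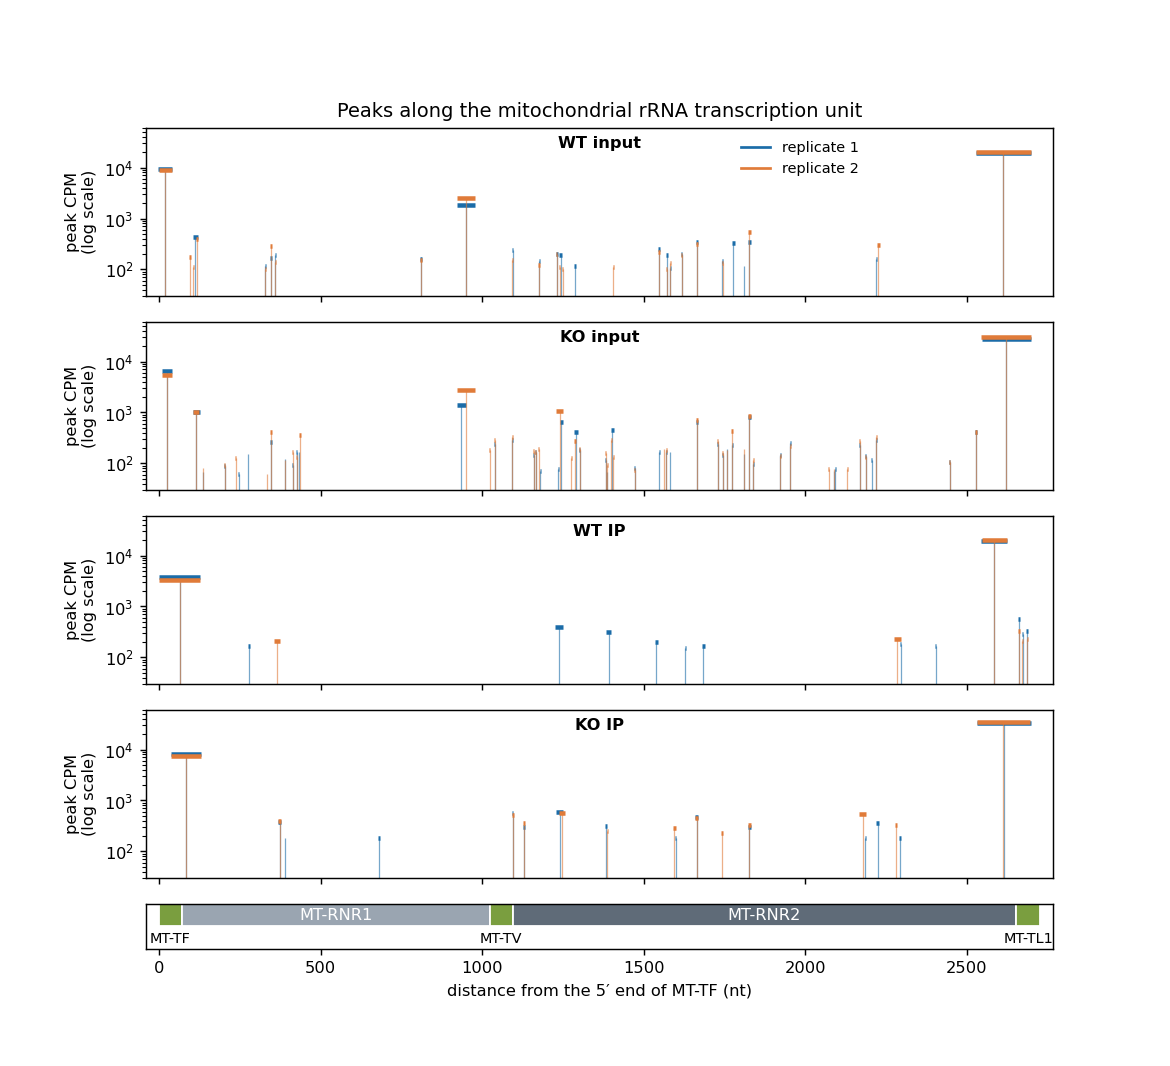
Peaks along the unit, with the distance from the 5′ end of MT-TF in nt on the x axis and the CPM of each peak on a log scale on the y axis, in 1 panel per group. Bars span the called peak, stems mark its centre, and blue and orange are replicates 1 and 2. The tallest peaks sat at both ends of the unit in all 8 libraries, and the inner peaks were most numerous in KO inputs and fewest in WT IPs.

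Signal was concentrated at the borders of the unit. Of its 60 regions, 2 had a peak in all 8 libraries (3.33%, against 186 of 1373 regions, or 13.5%, in the whole series), and both spanned a border between a tRNA and an rRNA. The region at the MT-TF and MT-RNR1 border (chrM:575-706) held between 12.9% and 29.0% of the unit's counts. The region at the MT-RNR2 and MT-TL1 border (chrM:3104-3275) held between 54.9% and 84.9%. The other 58 regions lay inside, 17 in MT-RNR1, 40 in MT-RNR2 and 1 in MT-TV, with a median width of 4 nt and a range from 2 to 58 nt.

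Because only regions with a peak in every compared library were fitted, few of the 60 entered a test. Of the unit's regions, 1 of 2 tested passed for WT IP against WT input (48.6% of all tested regions passed), 5 of 8 for KO IP against KO input (56.5%), 2 of 3 for WT IP against KO IP (37.7%) and 4 of 12 for WT input against KO input (34%). For the interaction, which asks whether the change from input to IP differed between lines, 1 of 2 passed (31.2%). With 2 to 12 regions tested, the shares are given beside the background and nothing is read from them. Of the 5 that passed for KO IP against KO input, 1 was higher and 4 were lower (25.6% and 30.9% of all tested). Of the 4 that passed between the inputs, 1 was higher and 3 were lower in WT (14.5% and 19.5%). The single interaction call was negative. Of all tested regions 10.8% passed with a negative and 20.4% with a positive interaction. The comparisons share libraries, so they are not independent of each other.

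**Figure D2:**
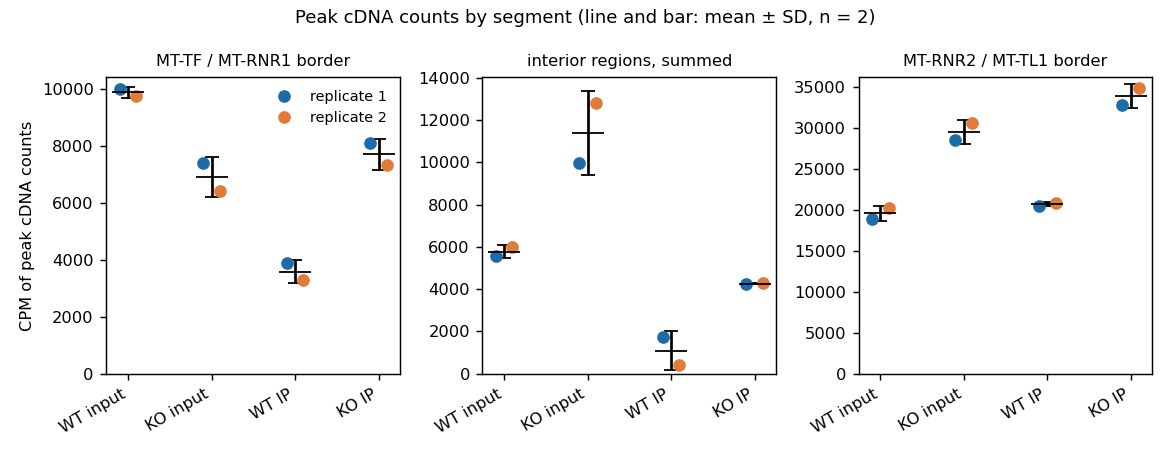
CPM of peak counts in the region at the MT-TF and MT-RNR1 border, in all inner regions summed and in the region at the MT-RNR2 and MT-TL1 border, by group; points are the 2 libraries, lines and bars the mean ± SD. At the first border the WT IPs, at 3868 and 3286 CPM, were lowest, while at the last border both KO groups lay above both WT groups.

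At the 5′ end of the unit, the border region of MT-TF and MT-RNR1 was lower after the pulldown in WT, and the change in the KO did not pass. Its counts were 943 and 955 in WT inputs and 253 and 159 in WT IPs, which is 10009 and 9742 CPM against 3868 and 3286. The KO inputs had 1439 and 1828 counts and the KO IPs 432 and 381, or 7399 and 6402 CPM against 8087 and 7308. The WT libraries did not overlap, whereas in the KO the ranges of input and IP did. WT IP was lower than WT input by edgeR (log2 fold change −1.53, SE 0.12, adjusted p = 0.00146), and between −1.75 and −1.20 over all alternatives. KO IP against KO input gave 0.06 (SE 0.16, adjusted p = 0.785), and between −0.20 and 0.27 over alternatives. The difference between these changes passed the interaction test (−1.25, SE 0.19, edgeR adjusted p = 0.00349), with values from −1.62 to −1.07 over 17 alternatives. None of these separated the peaks merged here. The first KO input peak ran from 585 to 616 and the KO IP peak from 613 to 706. In the KO, largely different bases were thus compared, and a change at fixed bases was not tested.

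The same border differed between lines in both fractions, in opposite directions. WT IP was lower than KO IP (log2 fold change −0.86, SE 0.16, edgeR adjusted p = 0.00422), a call lost without KO IP replicate 1 (−0.80, adjusted p = 0.0611). WT input was higher than KO input (0.57, SE 0.11, edgeR adjusted p = 0.0329), which was lost without any 1 of the 4 inputs (0.41 to 0.61, adjusted p from 0.0715 to 0.110). It was also lost when regions without a peak were set to the lowest listed count (0.38, adjusted p = 0.158).

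The peaks that make up this region did not cover the same bases. The first peak of the unit began at position 575 in WT input replicate 1 and 576 in replicate 2, at 585 in both KO inputs, and ended at 616 in all 4 inputs, that is at base 40 of the 71 nt of MT-TF. In the inputs it held 902 and 888 counts in WT and 1243 and 1542 in the KO, and separate small peaks followed in MT-RNR1 between positions 670 and 702. In the WT IPs a single peak ran from 576 to 704 in both replicates, with 71 nt in MT-TF and 57 nt in MT-RNR1. In the KO IPs it ran from 613 to 706 in both replicates, with 35 nt in MT-TF and 59 nt in MT-RNR1. The KO IP lists thus held no peak on the first 36 bases of the tRNA, where all inputs and both WT IPs had one. A fold change of the merged region therefore compares clusters of unequal extent.

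**Figure D3:**
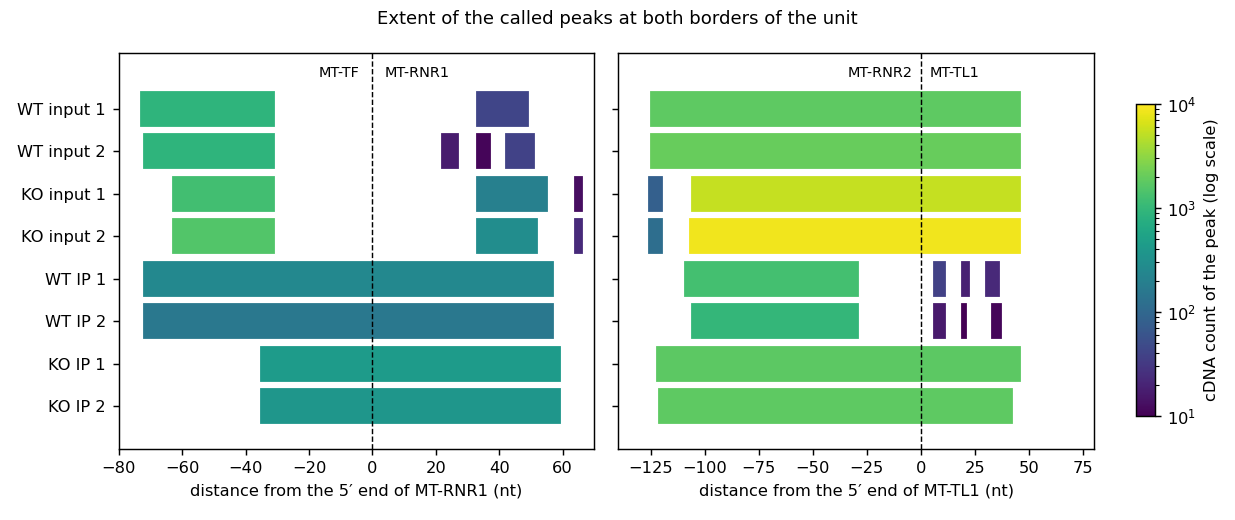
Extent of each called peak at both borders, with the distance from the 5′ end of MT-RNR1 (left) or MT-TL1 (right) in nt on the x axis and 1 row per library; colour gives the count on a log scale. The replicates of a group largely shared their borders, and the groups differed: the KO IP peak starts 35 nt before MT-RNR1, and the WT IP peak stops 29 nt before MT-TL1.

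At the 3′ end of the unit, the border of MT-RNR2 and MT-TL1 carried the highest peak in every library. It had 1781 and 1981 counts in WT inputs (18903 and 20208 CPM) and 1341 and 1009 in WT IPs (20501 and 20856 CPM). The KO inputs had 5537 and 8732 counts (28469 and 30581 CPM) and the KO IPs 1753 and 1821 (32815 and 34927 CPM). Every KO library lay above every WT library, and in each line the change from input to IP was small. Neither passed by edgeR: WT gave 0.02 on the log2 scale (SE 0.09, adjusted p = 0.896), the KO gave 0.10 (SE 0.10, adjusted p = 0.421), and the interaction did not pass (0.25, SE 0.11, adjusted p = 0.140). For regions with a mean of at least 50 counts, WT IP was higher than WT input (0.30, adjusted p = 0.0470).

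Between lines this border was lower in WT. The log2 fold change was −0.47 for WT IP against KO IP (SE 0.10, edgeR adjusted p = 0.00666), lost without KO IP replicate 2 (−0.45, adjusted p = 0.128). It was −0.54 for WT input against KO input (SE 0.06, edgeR adjusted p = 0.0159), lost without any 1 of the 4 inputs (−0.66 to −0.50, adjusted p from 0.0581 to 0.105). The sign was the same in all alternatives of both comparisons.

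Here too the extent differed. In the WT inputs the peak ran from 3105 to 3275, and in KO inputs from 3124 or 3123 to 3275, which placed 46 nt of each in MT-TL1. In the KO IPs it ran from 3108 to 3275 and from 3109 to 3271, again with 46 and 42 nt in the tRNA. In the WT IPs it ran from 3121 or 3124 to 3200 and so stopped 29 nt before MT-TL1. The tRNA then had 3 small peaks of its own in each WT IP, which summed to 79 and 37 counts and lay at bases 7 to 11, 20 to 22 and 31 to 37 of the gene. Among all 8 lists, MT-TL1 was the gene of most overlap in these 6 peaks only, and 77 nt at the end of MT-RNR2 were inside a peak of every library, as shown in capitals above.

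MT-RNR1 carried one further strong stretch, and it was seen only in the inputs. The region at chrM:1498-1555 had 171 and 252 counts in WT inputs (1815 and 2571 CPM) and 273 and 773 in KO inputs (1404 and 2707 CPM). None of the 4 IPs listed a peak there, where the minimum was between 153 and 207 CPM, so no called cluster reached these values in the IPs. The inputs of the lines overlapped and did not pass against each other (log2 fold change 0.14, SE 0.37, edgeR adjusted p = 0.772). With regions lacking a peak set to the lowest listed count, WT IP against WT input gave −3.76 on the log2 scale (SE 0.35, edgeR adjusted p = 0.000695) and KO IP against KO input −3.77 (SE 0.42, adjusted p = 0.00824). The region entered these fits only through its input peaks, and every IP value was the fill. The sign was thus set in advance, and neither a direction nor a size is read from these values. With the same fill, the difference between lines did not pass by edgeR (0.12, SE 0.56, adjusted p = 0.913). For 33 of its 58 bases, the 30 nt window that began at the base had an exact copy on a nuclear chromosome.

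A smaller MT-RNR1 region, chrM:933-954, had peaks of 18 and 14 counts in WT inputs and none in KO inputs, and of 20 and 21 counts in KO IPs (374 and 403 CPM). WT IP replicate 2 had a peak of 10 counts and replicate 1 none. The region was therefore not fitted with the counts as listed. Its peaks in WT inputs lay at 936 to 937 and those in KO IPs at 945 to 954, so they shared no base. Only the peak of WT IP replicate 2, from 933 to 949, joined them into 1 region.

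MT-TV had a peak of its own only in KO inputs, with 47 and 81 counts (242 and 284 CPM) at bases 13 to 16 of the tRNA (chrM:1614-1617). The list minimum was 106 and 102 CPM in WT inputs, below that level, and 153 to 207 CPM in the IPs. At its 3′ border with MT-RNR2 (chrM:1669-1675) there were 23 and 15 counts in WT inputs, 56 and 96 in KO inputs and 31 and 27 in KO IPs, and no peak in WT IPs. In CPM the KO IPs, at 580 and 518, lay above the KO inputs, at 288 and 336. The increase passed by edgeR (log2 fold change 0.72, SE 0.21, adjusted p = 0.0229) but not by DESeq2 (0.77, adjusted p = 0.335) or without any 1 of the 4 KO libraries. At all 7 bases of this region, and at all 4 of chrM:1614-1617, the 30 nt window that began there had an exact nuclear copy.

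Of the inner MT-RNR2 regions tested for KO IP against KO input, 4 were lower, the region at the MT-TV border above was higher, and 1 did not pass. At chrM:2400-2408 the counts were 157 and 246 in KO inputs (807 and 862 CPM) and 16 and 17 in KO IPs (300 and 326 CPM). Among the unit's 8 regions tested in this comparison this was the largest drop, and it held in every alternative (log2 fold change −1.51, SE 0.21, edgeR adjusted p = 0.00128, range −1.76 to −1.31). At chrM:1958-1984 the counts were 124 and 195 in KO inputs and 17 and 13 in KO IPs (−1.31, SE 0.23, edgeR adjusted p = 0.00348), which DESeq2 did not call (−1.26, adjusted p = 0.0834). In KO inputs, 88 of the counts of replicate 1 and 84 and 38 of replicate 2 lay in peaks between 1975 and 1984. The KO IP peaks covered 1958 to 1964 and 1963 to 1965 only. Largely different bases were thus compared there, and a change at fixed bases was not tested. At chrM:1804-1833 they were 139 and 306 against 32 and 30, with a mean of 893 CPM ± 252 (SD, n = 2) against 587 ± 16.7, and the difference was at the threshold (−0.70, SE 0.24, edgeR adjusted p = 0.0484). It was lost in 9 of 13 alternatives, among them those without KO IP replicate 1 (adjusted p = 0.243), KO IP replicate 2 (adjusted p = 0.0976) or KO input replicate 2 (adjusted p = 0.238). At chrM:2237-2245 they were 129 and 199 against 25 and 24 (−0.64, SE 0.20, edgeR adjusted p = 0.0288), lost without any 1 of the 4 libraries (adjusted p from 0.0579 to 0.0873). The region at chrM:2744-2766, with 71 and 119 counts against 10 and 28, did not pass (−0.21, SE 0.41, edgeR adjusted p = 0.694), but passed without KO IP replicate 2 (−1.24, adjusted p = 0.0337).

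**Figure D4:**
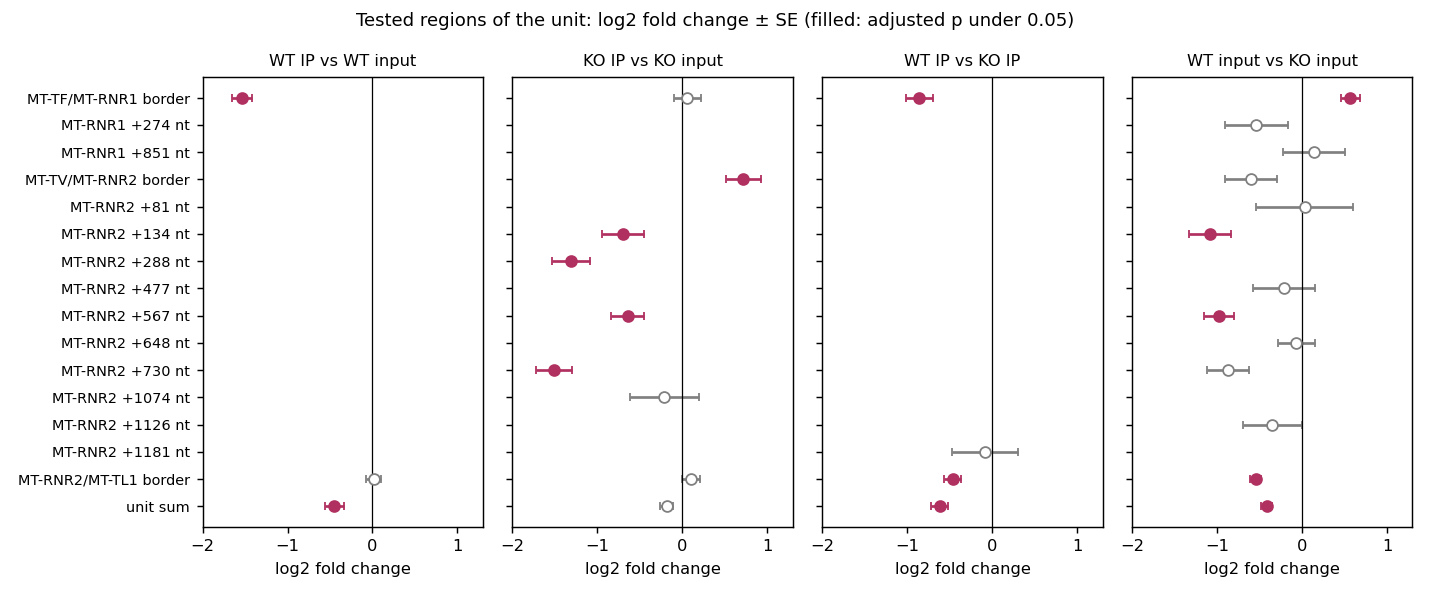
Log2 fold changes with their standard errors for the tested regions of the unit and for the unit sum in 4 comparisons, with filled points where the edgeR adjusted p was under 0.05; regions without a point had no peak in some compared library. Inner regions are named by the distance in nt from the start of their gene. The 5′ border stood at −1.53 for WT IP against WT input and at 0.06 for KO IP against KO input.

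Several of the same MT-RNR2 stretches were lower in WT inputs than in KO inputs. At chrM:2237-2245 the WT inputs had 33 and 31 counts (350 and 316 CPM) against 663 and 697 CPM in KO inputs (log2 fold change −0.98, SE 0.18, edgeR adjusted p = 0.0283). At chrM:1804-1833 they had 37 and 41 counts (393 and 418 CPM) against 715 and 1072 CPM (−1.09, SE 0.25, edgeR adjusted p = 0.0407). At chrM:2400-2408 they had 32 and 53 counts and missed the threshold (−0.87, SE 0.25, edgeR adjusted p = 0.0593). The inputs did not overlap in any of these regions. The first call was lost without WT input replicate 2, KO input replicate 1 or KO input replicate 2 (adjusted p from 0.0666 to 0.136) and the second without any 1 of the 4 inputs (adjusted p from 0.0729 to 0.152). Between the inputs, edgeR called 0 of 15 tested regions of the unit without WT input replicate 2, 0 of 12 without KO input replicate 1 and 0 of 14 without KO input replicate 2, where it called 9.73%, 0% and 0% of all regions. At an unadjusted p under 0.05 these fits had 7, 4 and 3 of the unit's regions, beside 43.9%, 34.7% and 36.5% of all. DESeq2 called 1, 0 and 0 of them, beside 7.01%, 4.17% and 3.95% of all. Without WT input replicate 1, edgeR called 2 of 13 (18.9% of all).

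The WT IPs had few inner peaks. WT IP replicate 1 listed 8 inner regions and replicate 2 listed 2, against 13 and 11 in KO IPs, 19 and 17 in WT inputs and 39 and 40 in KO inputs. Over the whole series the WT IPs listed 548 and 399 regions, the KO IPs 386 and 362, the WT inputs 587 and 565 and the KO inputs 719 and 1019. The inner regions held 6.73% and 1.77% of the unit's counts in WT IPs, 9.37% and 9.20% in KO IPs, 16.1% and 16.7% in WT inputs and 21.8% and 25.7% in KO inputs. List minimums differed between libraries, so regions were also counted at a common level of 207 CPM, the highest minimum. This left 2 and 2 in WT IPs, 8 and 11 in KO IPs, 7 and 7 in WT inputs and 14 and 15 in KO inputs. The order of WT IP below KO IP and of WT input below KO input was the same at the common level. At that level the series had 442 and 399 regions in WT IPs, 345 and 347 in KO IPs, 396 and 377 in WT inputs and 389 and 411 in KO inputs.

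Only 1 inner region had a peak in both WT IPs, chrM:2851-2874 in MT-RNR2, with 12 and 11 counts, and it had 10 and 17 in KO IPs and no peak in any input. It did not differ detectably between the IPs (log2 fold change −0.08, SE 0.39, edgeR adjusted p = 0.874). Its listed values of 183 and 227 CPM in WT and 187 and 326 CPM in the KO compare with list minimums of 153, 207, 187 and 192 CPM in the same order, and the minimums of the inputs were lower. Since no input listed a peak there, no fold against input is given. The KO IP peaks, at 2869 to 2873 and 2854 to 2862, shared no base. The WT IP peaks lay at 2871 to 2874 and 2851 to 2873, and the latter joined the region. The comparison of the IPs thus covers unequal bases.

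In the KO IPs, 6 regions had a peak in both replicates and in neither WT IP, and 0 had the opposite pattern. Of the 60 regions this is 10% and 0%, against 43 (3.13%) and 98 (7.14%) of the 1373 regions of the series. The difference between these shares was not tested. The 6 were chrM:1669-1675, chrM:1704-1710, chrM:2168-2176, chrM:2237-2245, chrM:2400-2408 and chrM:2744-2766, all assigned to MT-RNR2. Both chrM:1704-1710, with 16 and 19 counts, and chrM:2168-2176, with 10 and 15, had no peak in any input. With regions lacking a peak set to the lowest listed count, KO IP was higher than KO input at the former (2.62, SE 0.27, edgeR adjusted p = 0.00702) and the latter (2.15, SE 0.36, adjusted p = 0.0191). Both regions entered this fit only through their KO IP peaks. The fill of 10 counts was worth 51.4 and 35.0 CPM in KO inputs, against 187 and 192 CPM in KO IPs. These values therefore come largely from the fill, and no enrichment is read from them. In that edgeR fit WT IP against KO IP passed at neither (adjusted p = 0.103 and 0.590), whereas with missing peaks set to 0 it passed at both (adjusted p = 0.0170 for each). The outcome between lines thus depends on the fill, with counts of 10 to 19 and a minimum of 10. The 30 nt window that began at a base had an exact nuclear copy at all 9 bases of chrM:2168-2176. This held at 0 of the 7 bases of chrM:1704-1710.

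In the KO inputs, 19 regions had a peak in both replicates and in neither WT input, and 4 regions had the opposite pattern. This is 31.7% and 6.67% of the unit's regions, against 207 (15.1%) and 23 (1.68%) of all regions, and the difference was not tested. In 13 of the 19, both KO values were above the WT input minimum of 106 CPM, and in the other 6 at least 1 was at or under it. The 4 regions seen in both WT inputs and in no KO input were chrM:904-906, chrM:933-954 and chrM:1386-1390 in MT-RNR1 and chrM:2193-2196 in MT-RNR2, with 10 to 19 counts each. These KO libraries had the higher totals and the lower minimums, and the part of depth in these patterns was not tested beyond the common level above.

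Summed over genes, the unit's counts went mostly to MT-RNR2. By the gene of most overlap, MT-RNR2 had 22002 and 22962 CPM in WT inputs, 35626 and 38629 in KO inputs, 20883 and 20318 in WT IPs and 36297 and 38802 in KO IPs. WT lay below KO in both fractions, with a log2 fold change of −0.69 for the inputs (SE 0.06, edgeR adjusted p = 0.0110) and −0.63 for the IPs (SE 0.10, edgeR adjusted p = 0.00144). The former was lost without WT input replicate 1 (adjusted p = 0.0538), KO input replicate 1 (adjusted p = 0.0884) or KO input replicate 2 (adjusted p = 0.0624). With the counts of each peak split over genes by length, the IP difference was −0.22 and did not pass by edgeR (adjusted p = 0.147). The border peak of the KO IPs reaches into MT-TL1 and that of the WT IPs does not. The interaction of MT-RNR2 did not pass whole (0.27, SE 0.10, edgeR adjusted p = 0.0963) and passed split (0.65, SE 0.12, adjusted p = 0.00613).

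The sums of MT-TF and MT-RNR1 rest on which gene takes the border peak. That peak counts as MT-TF in WT IPs and as MT-RNR1 in KO IPs, so that MT-RNR1 had 168 and 207 CPM in WT IPs and 8836 and 7710 in KO IPs, and MT-TF had 3868 and 3286 CPM in WT IPs and no assigned peak in KO IPs. With whole peaks, MT-RNR1 gave −5.23 for WT IP against KO IP, −4.24 for WT IP against WT input and an interaction of −4.67, and these sizes depend on that assignment. With counts split by length, MT-RNR1 gave −1.36 for WT IP against KO IP (SE 0.20, edgeR adjusted p = 0.00135) and −0.90 for WT IP against WT input (SE 0.25, adjusted p = 0.0274). The split interaction was −0.82 (SE 0.33, edgeR adjusted p = 0.106). The increase of MT-RNR1 in KO IP over KO input (0.75, SE 0.21, edgeR adjusted p = 0.0266) fell to 0.17 after the split (adjusted p = 0.550). For MT-TF, WT IP was below WT input both whole (−1.44, SE 0.13, edgeR adjusted p = 0.00134) and split (−2.13, SE 0.17, adjusted p = 0.000312). In the inputs MT-TF was higher in WT, by 0.69 whole (SE 0.13, edgeR adjusted p = 0.0278) and 0.65 split (SE 0.12, adjusted p = 0.0292), and the former was lost without any 1 of the 4 inputs.

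Per length, the tRNA genes at both ends exceeded the rRNAs in all 4 inputs. With split counts, the WT inputs had 128 and 124 CPM per nt of MT-TF and 67.8 and 72.5 of MT-TL1, against 10.8 and 11.2 of MT-RNR2, 3.03 and 4.13 of MT-RNR1 and 1.38 and 1.18 of MT-TV. The KO inputs had 90.0 and 76.1 for MT-TF, 113 and 121 for MT-TL1, 17.3 and 18.9 for MT-RNR2, 3.77 and 5.72 for MT-RNR1 and 5.59 and 6.55 for MT-TV. MT-TF was thus the densest gene in WT inputs and MT-TL1 in KO inputs. In the WT IPs the values were 29.9 and 25.6 for MT-TF, 16.1 and 10.2 for MT-TL1 and 13.4 and 13.0 for MT-RNR2, so that MT-TL1 lay below MT-RNR2 in replicate 2. In the KO IPs they were 42.4 and 38.4 for MT-TF, 120 and 120 for MT-TL1 and 17.4 and 19.1 for MT-RNR2. These densities assume that counts are spread evenly within a peak.

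The bases under the inner peaks were richer in A and poorer in C than the unit, which is 34.2% A and 25.8% C. The share of A was 42.5% in WT input, 40.5% in KO input, 35.7% in WT IP and 45.8% in KO IP, and the share of C was 16.8%, 19.4%, 19.6% and 17.6%. These shares rest on 167, 237, 112 and 142 bases in that order, and neighbouring bases of 1 peak are not independent. They are given as a description.

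Copies of the unit on nuclear chromosomes bear on the counts, since only uniquely mapping reads were kept. A blastn search gave 166 nuclear matches, and 1333 of 2699 windows of 30 nt (49.4%) had an exact nuclear copy. A copy that overlaps the 5′ border lies on the minus strand of chr2:148881726-148881857 and is 98.5% identical to chrM:611-742. The 132 nt of both are shown, with capitals at the bases that differ, A5C and G99A, counted from 1 at the start of the stretch with the mitochondrial base first.
chrM stretch: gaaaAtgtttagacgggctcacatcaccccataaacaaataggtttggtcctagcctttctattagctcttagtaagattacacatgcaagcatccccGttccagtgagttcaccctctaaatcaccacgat
chromosome 2 copy: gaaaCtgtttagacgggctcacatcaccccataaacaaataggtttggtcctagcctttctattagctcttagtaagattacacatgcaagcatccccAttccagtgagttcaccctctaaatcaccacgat
All 8 libraries listed a peak on this copy, with 263 and 142 counts in WT inputs, 211 and 398 in KO inputs, 44 and 23 in WT IPs and 83 and 60 in KO IPs. This was 12.6% to 21.8% of the sum of border and copy. Adding the copy to the border region changed no call of the unit, and the interaction at the border was then −1.31 (SE 0.19, edgeR adjusted p = 0.00327). Of the 172 bases of the 3′ border region, 19 were the first base of a 30 nt window with an exact nuclear copy. No such window began in the regions at chrM:2237-2245 and chrM:2400-2408, and windows that began upstream and reached into them were not counted.

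Other RNAs give the scale of these changes. For WT IP against WT input the median log2 fold change was −0.17 over the 243 regions tested and −0.26 over 23 regions of the large cytosolic rRNA, of which 2 were higher and 10 lower. Of the 4 other mitochondrial plus-strand regions 2 were higher and 1 was lower, with a median of 0.73. For WT IP against KO IP, 0 of 29 regions of the large cytosolic rRNA were higher and 19 lower (median −1.11), while the median over all 220 regions was 0.02. For WT input against KO input, 0 of 34 regions of the large cytosolic rRNA were higher and 14 lower (median −0.42). Of 8 other mitochondrial plus-strand regions 0 were higher and 6 lower (median −0.90), while the median over all 400 regions was 0.004. The unit shared its lower level in WT IP with the cytosolic rRNA. Its lower level in WT input was shared with the large cytosolic rRNA and the other mitochondrial plus-strand regions. Nothing particular to the unit is read from either. For WT IP against KO IP, 4 regions on the rest of the plus strand of the mitochondrial genome were tested. Of these 1 was higher and 2 were lower, with a median of −0.47. All peaks there summed to 18.5% ± 1.77 (SD, n = 2) of the counts in WT IPs against 6.80% ± 0.144 in KO IPs and 3.17% ± 0.170 in WT inputs. Part of each share is set by the others, and the part of this in the unit's share was not tested. On the opposite strand within the unit 3 peaks were listed, 2 in WT IP replicate 2 and 1 in KO input replicate 1, with 11 or 12 counts each.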

How the data were processed

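The authors processed reads with the iCount consensus pipeline: PCR copies were collapsed by their unique molecular identifiers, STAR aligned the reads first to tRNA and rRNA and then to GRCh38, and uniquely mapping reads were kept. They called peaks with Paraclu at default parameters in each library. Each deposited peak carries a count of cDNAs that was not normalized. The methods name HEK293T and the labels HEK-293.

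Peaks were merged at 1 nt of overlap. Regions with a peak in every compared library entered the quasi-likelihood test of edgeR 4.0.16 (R 4.3.3), two-sided and with TMM factors. Calls had a p under 0.05 after Benjamini-Hochberg adjustment over all regions, with the compared groups in the fit and all 4 for the interaction. The standard error is the size of the fold change over the square root of F. On simulated counts with changes of 4-fold in 20 regions per set, the test recovered between 91.5% and 98% of changed regions over the 5 comparisons. Between 1.54% and 4.46% of calls were wrong. The simulated counts had a single fixed dispersion, no list minimum and no filter on peaks. These rates therefore do not carry over to the calls made here. DESeq2 1.42.0 was an alternative, and blastn 2.17.0 found nuclear copies. Genes are from GENCODE release 44. A peak tied between genes went to the downstream gene, a choice made after the peaks were seen.

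Named are the 5 genes, the regions with a peak in all 8 libraries, those that passed a test, those in both replicates of a group and in neither of another, and the 3 largest of each group. The members, lists and tests were chosen with earlier results of these data known. Of the alternatives, 157 were listed at the start and 2 (splitting counts by length, and adding the chromosome 2 copy) were added after the data were seen. All 26 reference names but 1 were in the FASTA used. The spike-in was not analysed here. Python 3.11.15 was used for tables and matplotlib 3.10.9 for figures.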

Additional observations from a re-analysis of the deposited data

Results flagged for a closer look

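The change from input to IP at the MT-TF and MT-RNR1 border (chrM:575-706) differed between lines, with an interaction of −1.25 on the log2 scale. The peaks merged there covered unequal bases in the groups, so a change at fixed bases was not tested. The MT-RNR1 sum by gene of most overlap also differed, with −4.67, and this value follows from the border peak being assigned to MT-TF in the WT IPs and to MT-RNR1 in the KO IPs. With counts split by length it was −0.82 and did not pass.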

How the results depend on the processing

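No call made on the counts as listed passed with the opposite sign in an alternative. For KO IP against KO input, 3 regions outside that fit passed by edgeR with opposite signs under the 2 fills of missing peaks: chrM:712-713 (−6.50 with 0, 0.99 with the lowest listed count), chrM:2048-2049 (−6.57 and 0.95) and chrM:2666-2667 (−6.51 and 0.99). The count of the unit's regions called depended most on regions without a peak. With 0 in libraries without a peak, the calls were 16 of 20 for WT IP against WT input (54.6% of all regions), 31 of 39 for KO IP against KO input (69.4%), 8 of 12 for WT IP against KO IP (42.6%), 26 of 41 for the inputs (43.3%) and 4 of 45 for the interaction (9.33%). With the lowest listed count they were 4 (43.6%), 15 (49.3%), 5 (29.8%), 14 (27%) and 9 (14.4%). For KO IP against KO input the calls were 4 higher and 27 lower with 0, and 7 higher and 8 lower with the lowest count. DESeq2 called 1 for KO IP against KO input and 2 for the inputs. A mean of at least 50 counts gave 2 for WT IP against WT input and 3 for KO IP against KO input, and peak totals as library sizes gave 3 for the latter, 1 higher and 2 lower. Leaving out 1 library gave 2 to 3 for KO IP against KO input, 1 to 2 for WT IP against KO IP and 0 to 2 for the inputs, where edgeR had 3 to 7 at an unadjusted p under 0.05 and DESeq2 0 to 1. The unit sum of KO IP against KO input passed with the genome list only (−0.49), with missing peaks at 0 (−0.31) or at the lowest count (−0.41), and lay between −0.26 and −0.070 with 1 library left out. That of WT IP against WT input did not pass at a mean of at least 50 (−0.27) and lay between −0.54 and −0.29 with 1 library left out, that of the IPs between −0.66 and −0.52, and that of the inputs between −0.53 and −0.39. The interaction of the unit sum was −0.41 with peak totals, a setting that moved the median of all regions to −0.34. The unit's share was 46.4%, 41.2%, 11.5% and 33.2% of the mitochondrial counts (WT input, KO input, WT IP, KO IP), 14.8%, 17.7%, 6.20% and 18.1% of the genome list, and 3.66%, 4.48%, 2.95% and 5.14% over peaks above 100 counts. The causes were not tested. Replicate numbers do not mark a shared culture in the labels. Deviations of same-numbered libraries correlated at 0.17 to 0.49 in the 4 pairwise comparisons, and with the replicate block the calls were 1, 4, 2, 4 and 1, the lost one being chrM:1804-1833 (adjusted p = 0.0502 by edgeR). With the block, the MT-RNR1 sum of the inputs passed (−0.37, adjusted p = 0.0472 by edgeR). Inner peaks averaged 10.5 to 20.3 counts in the IPs and 26.2 to 83.0 in the inputs, and 2 libraries per group limit every comparison.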
